A study of Mus musculus with 163 samples.

Results

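The subject is a set of 9 protein-coding mouse genes that share an on-off pattern among growing oocytes (GROs) made in culture from embryonic gonads: in some oocytes a gene was high, in the others it was low, and no oocyte lay between. The 9 genes, of 21950 in the table, are Pnpla3, Gpat3, Mtfr2, Gsto2, Fmo6, Cfap58, Bfsp1, Pdgfrl and Draxin. They were picked from the levels in the gonad-derived GROs themselves, so everything said of that group is a description of the choice. The rule that picks them uses no value of the other 6 groups, but results of those groups were known when the set was proposed.

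Polyadenylated transcripts of 163 single oocytes had been copied and amplified whole by the Smart-seq2 method and sequenced. The GROs comprised 23 made from iPSCs, 24 from gonads and 24 grown in vivo. Fully grown oocytes (FGOs) comprised 24 from iPSCs, 24 from gonads, 24 from 6 dpp follicles and 20 grown in vivo. iPSC-derived oocytes came from 1 female line of induced pluripotent stem cells, BVSC-iPSC, made from adult tail tip fibroblasts and carrying the reporters Blimp1-Venus and Stella-ECFP. Its primordial germ cell-like cells were aggregated with somatic cells of E12.5 female gonads that had been depleted of germ cells, and some oocytes of such aggregates without Stella-ECFP could stem from residual gonadal germ cells. Gonad-derived oocytes came from dissociated E12.5 gonads whose cells, primordial germ cells included, were re-aggregated and put through a similar culture with a somewhat shorter growth phase. The 6 dpp FGOs had been grown in culture within follicles of mice at 6 days post partum, and in vivo oocytes were never cultured for growth. The study's methods name outbred Swiss Webster mice as the source of the gonads that gave somatic cells to the iPSC-derived aggregates, and name no strain for the sequenced gonad-derived, 6 dpp and in vivo oocytes. The study reports that iPSC-derived and gonad-derived GROs were larger than in vivo GROs. Oocyte size was not used here, so the GRO groups are not matched in size. No animal, embryo or culture is named behind any oocyte, so each group counts as 1 sample and no difference between groups was tested.

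An oocyte grows while it transcribes and stores the messenger RNAs that will serve the egg and early embryo, and transcription is shut down towards full size. The 9 genes come from separate branches of cell biology. Pnpla3 encodes a patatin-like lipase of lipid droplets and Gpat3 an acyltransferase that starts glycerolipid synthesis, while Mtfr2 encodes a regulator of mitochondrial fission. Gsto2 is an omega-class glutathione transferase that reduces dehydroascorbate, and Fmo6 belongs to the flavin-containing monooxygenases, which oxidise many small molecules. Cfap58 is a protein of cilia and sperm flagella, and Bfsp1 (filensin) builds the beaded filament of the eye lens. Pdgfrl resembles the extracellular part of the PDGF receptors, and Draxin is a secreted guidance protein of growing axons that binds the netrin receptor Dcc.

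Levels are given as reads per 1000000 counted reads of the oocyte (CPM), so they are shares of its counted RNA and not amounts per cell. Total counts ran from 2.17 M to 13.7 M reads per oocyte, and gonad-derived FGOs 5 and 22 were the shallowest. All 12 oocyte markers were detected in every group, with a summed level of 41181 to 55212 CPM in gonad-derived GROs and 22197 to 36694 CPM in gonad-derived FGOs. The 12 matched of 14 granulosa markers summed to 28.4 to 102 CPM and 86.5 to 158 CPM in the same groups, with 1 of them, Inhbb, at 0 in gonad-derived GROs. In 6 dpp FGOs the granulosa sum reached 1630 CPM and in in vivo FGOs 413 CPM.

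A gene was called on-off in a group when its oocytes, sorted by log2(CPM + 0.5), were split by a gap of at least 2 (4-fold) with at least 3 oocytes on each side and at least 2 CPM above the gap. Among gonad-derived GROs 23 of 12404 genes that passed the filter met this, 0.185%, and the 9 genes are among them by choice. Their gaps ranged from 2.10 for Draxin to 6.37 for Bfsp1. Draxin was the member nearest to the limit. Among the other genes Mamdc2 lay just inside at 2.03, and Extl1 and Cyp2c53-ps lay just outside at 1.99992 and 1.99. A gap of 3 in place of 2 called 10 genes in gonad-derived GROs, among them 4 of the 9. Requiring at least 5 oocytes on each side called 6 of the 9. An oocyte is called high for a gene below when it lies above the middle, on the log2 scale, of that gene's gap in gonad-derived GROs.

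**Figure D1:**
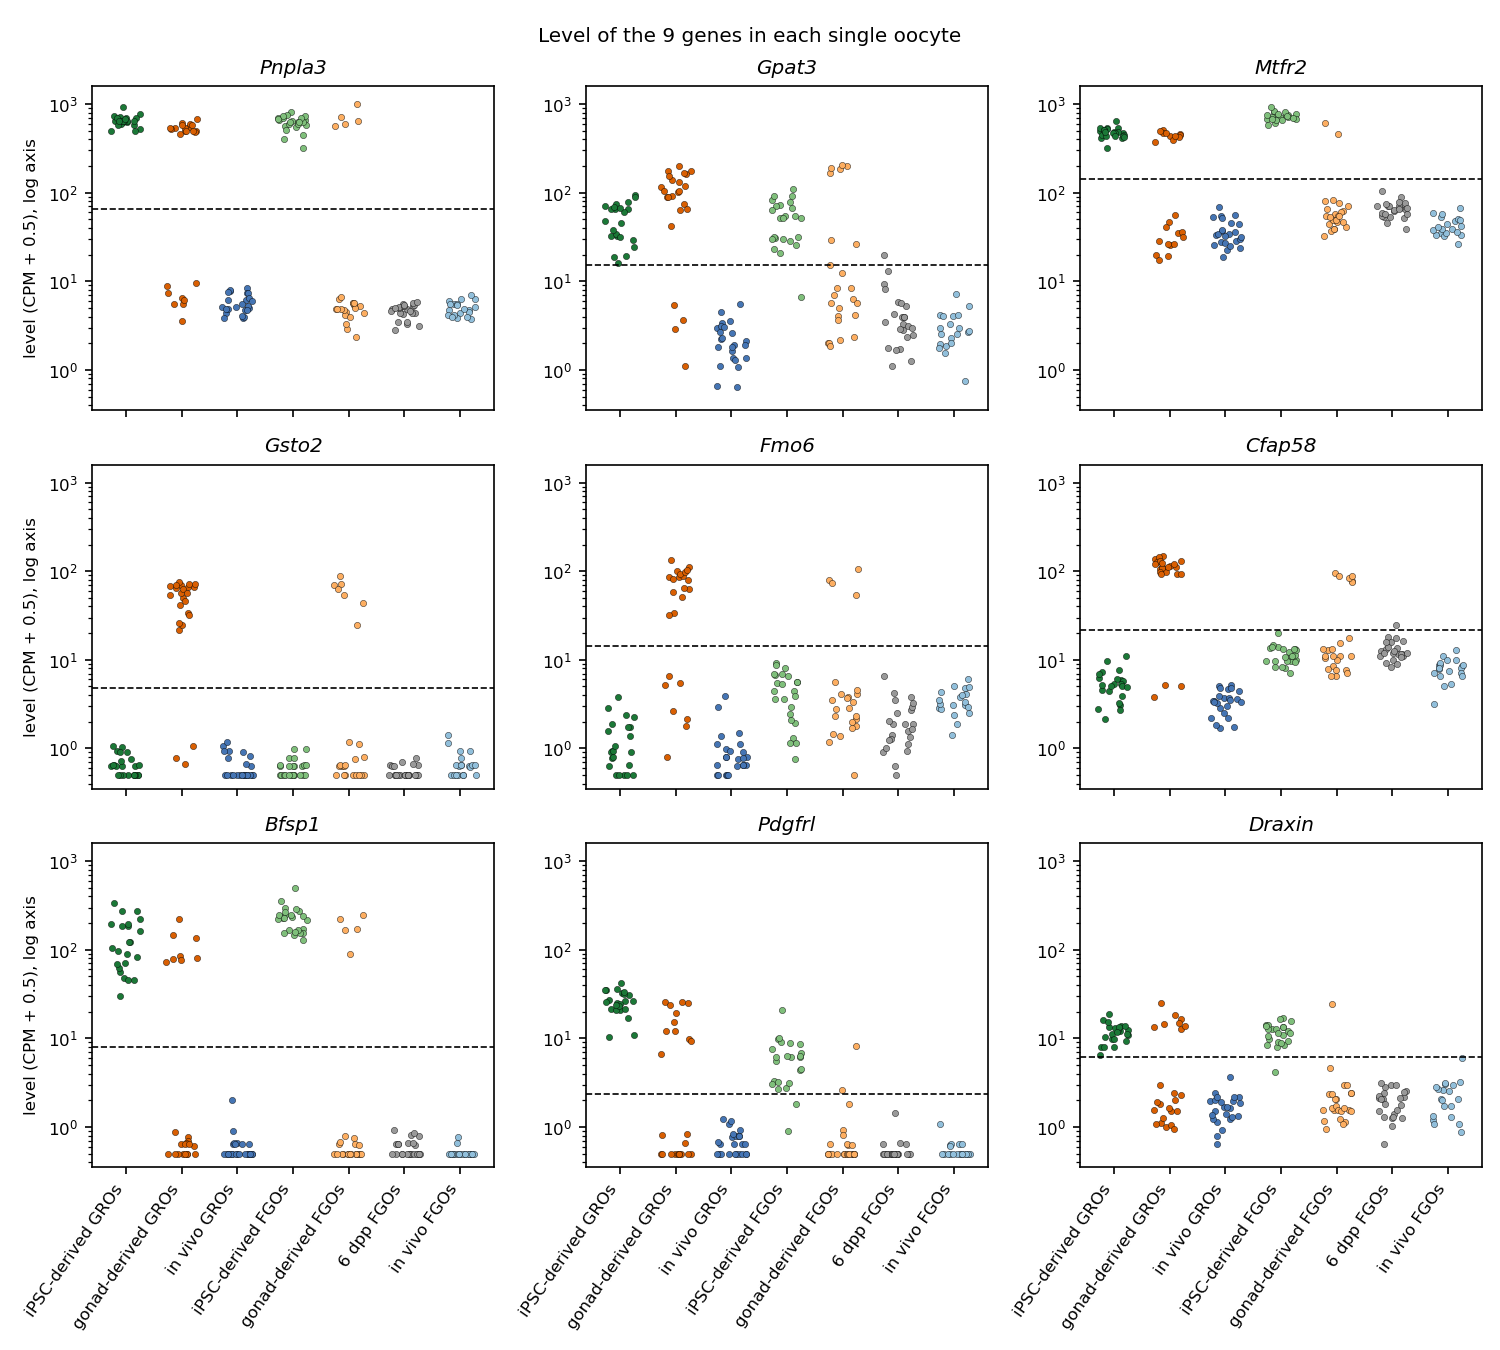
Level of each of the 9 genes in all 163 oocytes, 1 point per oocyte, as CPM + 0.5 on a log axis, by group; the dashed line is the threshold between low and high. The orange gonad-derived groups split about the line, in vivo oocytes lie below it throughout, and iPSC-derived oocytes lie mostly on 1 side.

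In the 5 groups other than the gonad-derived GROs and FGOs, none of the 9 genes was called on-off. In all 24 in vivo GROs and all 20 in vivo FGOs every one of the 9 genes was low (0 of 24 oocytes allows a share of up to 14.2% and 0 of 20 up to 16.8%, exact binomial 95% intervals that cover counting error only). With the threshold at the lower edge of each gap 12 values were high in in vivo GROs and 30 in in vivo FGOs, and with 10 CPM for every gene 24 and 22. The 6 dpp FGOs were low at all but 2 of 216 values, and 52 of the 216 lay above the lower edge of the gap. iPSC-derived GROs had no split gene: 6 genes, Pnpla3, Gpat3, Mtfr2, Bfsp1, Pdgfrl and Draxin, were high in all 23 oocytes, and 3 genes, Gsto2, Fmo6 and Cfap58, were low in all 23. With the threshold at the upper edge of the gap, high oocytes among these 23 were 8 for Draxin, 13 for Gpat3, 15 for Bfsp1 and 22 for Mtfr2, and still all for Pnpla3 and Pdgfrl. At the middle of the gap iPSC-derived FGOs held to the same division in 21 of 24 oocytes, and each of the other 3 oocytes departed from it by 1 or 2 genes. At the lower edge, 4.66 CPM for Cfap58, none of these FGOs kept the division, as all had more of that gene (6.56 to 19.5 CPM). Some iPSC-derived GROs, with up to 10.4 CPM of Cfap58, also lay above that edge. The share of all tested genes called was 0.0239% in iPSC-derived GROs, 0.00803% in in vivo GROs, 0.0246% in iPSC-derived FGOs, 0.0244% in 6 dpp FGOs and 0% in in vivo FGOs, which rest on 3, 1, 3, 3 and 0 genes. These small counts moved with the settings: with at least 2 oocytes on each side of the gap they were 8, 2, 6, 45 and 7 genes, beside 28 in gonad-derived GROs and 24 in gonad-derived FGOs, and with a gap of 1.5 they were 10, 3, 9, 8 and 10. Under both settings none of the 9 genes was among them.

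Gonad-derived FGOs were again split. Of the 9 genes 6 (Pnpla3, Gpat3, Gsto2, Fmo6, Cfap58 and Bfsp1) were called on-off there, beside 0.154% of the 12368 genes tested. With a gap of 3 in place of 2 on the log2 scale 4 of these calls were left, without Gpat3 (gap 2.51) and Cfap58 (2.12), and with at least 5 oocytes on each side 5 were left, without Fmo6. Over all genes the calls numbered 19 with a gap of 2, 12 with a gap of 3 and 37 with a gap of 1.5. The gap of 1.5 called the same 6 of the 9. The other 3 genes, Mtfr2, Pdgfrl and Draxin, each had fewer than 3 oocytes above the threshold. Mtfr2 was called with at least 2 oocytes on each side (gap 2.48), and Pdgfrl, at 86 reads over all 24 FGOs, after thinning each oocyte to 2000000 reads (2.32 in place of 0.96). Of the 14 other genes called in gonad-derived GROs, 6 were called in the FGOs as well. In all, 12 genes were called in both groups, 52.2% of the calls in GROs and 63.2% of those in FGOs.

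Pnpla3, the lipid droplet lipase (Entrez 116939, chr15:84167776-84189521, build GRCm38), had the second widest gap. Among gonad-derived GROs 16 oocytes lay between 459 and 670 CPM and 8 between 3.06 and 9.03 CPM. The upper range overlapped that of iPSC-derived GROs (494 to 925 CPM, median 640 CPM), and the lower range covered that of in vivo GROs (3.33 to 7.81 CPM, median 4.73 CPM).

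In gonad-derived FGOs 19 oocytes had at most 6.19 CPM of Pnpla3. Oocytes 10, 17, 18, 19 and 22 had 638, 561, 716, 1005 and 600 CPM. iPSC-derived FGOs ranged from 321 to 805 CPM (median 630 CPM), 6 dpp FGOs from 2.29 to 5.28 CPM (median 4.34 CPM) and in vivo FGOs from 3.27 to 6.58 CPM (median 4.29 CPM). In the order of medians both iPSC-derived groups came first, with overlapping ranges, then the gonad-derived GROs at 493 CPM. Both in vivo groups, the 6 dpp FGOs and the low gonad-derived FGOs overlapped at the bottom.

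Bfsp1, the lens filament protein (Entrez 12075, chr2:143826528-143915219), had the widest gap, with levels near 0 below it. In gonad-derived GROs 16 oocytes had at most 0.369 CPM, 8 had 71.5 to 223 CPM, and the median of the group was 0.148 CPM. In gonad-derived FGOs oocytes 10, 17, 18, 21 and 22 had 88.7, 245, 221, 168 and 173 CPM, and the other 19 had at most 0.290 CPM. The gene was high in every iPSC-derived oocyte. Their levels were 29.4 to 339 CPM (median 104 CPM) in GROs and 129 to 492 CPM (median 227 CPM) in FGOs, 2 ranges that overlap. No in vivo or 6 dpp oocyte exceeded 1.54 CPM of Bfsp1, and the median was 0 CPM in all 3 of those groups.

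Mtfr2, the mitochondrial fission regulator (Entrez 71804, chr10:20344653-20361669), differed in that its lower set was clearly expressed. Among gonad-derived GROs 13 had 16.8 to 55.5 CPM and 11 had 369 to 515 CPM. The lower set lay within the range of in vivo GROs (18.2 to 68.4 CPM, median 33.3 CPM) apart from its lowest oocyte, and the upper set lay within that of iPSC-derived GROs (320 to 643 CPM, median 475 CPM). In gonad-derived FGOs only oocytes 20 and 21 were high, at 613 and 457 CPM, and the next oocyte had 81.5 CPM. With 2 oocytes above the gap the gene missed the call there. iPSC-derived FGOs were all high at 580 to 929 CPM (median 715 CPM). The 6 dpp FGOs (38.3 to 104 CPM) and in vivo FGOs (26.0 to 66.0 CPM) overlapped the 22 low gonad-derived FGOs.

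Gpat3, the glycerolipid acyltransferase (Entrez 231510, chr5:100845665-100899102), was high in 20 of 24 gonad-derived GROs, at 41.2 to 197 CPM, and low in oocytes 5, 10, 12 and 20, at 0.600, 4.95, 2.40 and 3.13 CPM. iPSC-derived GROs ranged from 15.7 to 94.4 CPM (median 47.5 CPM), so that their lowest oocyte was close to the threshold of 14.6 CPM. iPSC-derived FGOs ranged from 6.14 to 111 CPM (median 51.1 CPM), with 23 of 24 above the threshold. In gonad-derived FGOs oocytes 17, 18, 20, 22 and 23 had 168 to 205 CPM, and the widest gap set these 5 apart. Oocytes 19, 21 and 24 had 25.6, 29.0 and 14.8 CPM, above the threshold but below that gap. The gene was at most at 5.07 CPM in in vivo GROs (median 1.53 CPM) and reached 6.60 CPM in in vivo FGOs and 19.1 CPM in 6 dpp FGOs.

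Gsto2, the dehydroascorbate reductase (Entrez 68214, chr19:47865438-47886308), and Cfap58, the flagellar protein (Entrez 381229, chr19:47937712-48035379), lie on the same chromosome with 51403 bases and 1 RefSeq gene, Itprip, between them. Their promoters, taken from RefSeq (GRCm38.p6, 250 bases before to 50 after the start of a transcript, which need not be the outer end of the gene's span), are shown because the pair was high and low in the same gonad-derived GROs. Of the 2 starts listed for Gsto2 the more upstream is printed. The promoters of Pnpla3 and Bfsp1 follow as those of the 2 widest gaps. That of Bfsp1 lies within the gene's span. Each runs 5′ to 3′ on the gene's strand, and capitals mark CpG dinucleotides.
Gsto2 (chr19:47865295-47865594, plus strand): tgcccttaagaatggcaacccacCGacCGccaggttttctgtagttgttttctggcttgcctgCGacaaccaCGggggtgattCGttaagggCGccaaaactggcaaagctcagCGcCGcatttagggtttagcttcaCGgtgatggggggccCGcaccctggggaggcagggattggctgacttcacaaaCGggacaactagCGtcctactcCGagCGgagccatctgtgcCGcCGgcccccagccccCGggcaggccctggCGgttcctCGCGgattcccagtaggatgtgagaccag
Cfap58 (chr19:47937462-47937761, plus strand): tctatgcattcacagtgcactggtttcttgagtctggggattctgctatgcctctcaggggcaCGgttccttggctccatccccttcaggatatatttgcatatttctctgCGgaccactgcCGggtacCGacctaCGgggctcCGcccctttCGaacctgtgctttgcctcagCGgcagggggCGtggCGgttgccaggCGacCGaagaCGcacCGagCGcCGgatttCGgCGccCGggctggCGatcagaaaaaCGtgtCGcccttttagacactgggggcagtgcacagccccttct
Pnpla3 (chr15:84167566-84167865, plus strand): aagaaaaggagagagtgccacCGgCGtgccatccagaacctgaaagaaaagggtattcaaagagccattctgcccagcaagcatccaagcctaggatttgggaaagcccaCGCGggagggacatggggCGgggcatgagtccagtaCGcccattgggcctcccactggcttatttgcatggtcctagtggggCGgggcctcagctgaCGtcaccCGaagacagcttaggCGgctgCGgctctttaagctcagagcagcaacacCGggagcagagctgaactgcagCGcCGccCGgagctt
Bfsp1 (chr2:143863124-143863423, minus strand): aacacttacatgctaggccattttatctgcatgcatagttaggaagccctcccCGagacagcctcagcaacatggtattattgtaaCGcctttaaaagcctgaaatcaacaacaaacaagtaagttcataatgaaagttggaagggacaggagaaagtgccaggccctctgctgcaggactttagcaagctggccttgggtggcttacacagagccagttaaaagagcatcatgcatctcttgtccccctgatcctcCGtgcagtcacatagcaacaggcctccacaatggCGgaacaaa

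Promoters were listed for 8 of the 9 genes, 9 starts in all. Their CpG content relative to that given by their C and G counts ranged from 0.236 for Bfsp1 to 1.02 for Mtfr2, against a median of 0.384 over all 32851 promoters of the same length. Of the 9 starts listed that of Bfsp1 alone was below that median, and which start the oocytes used was not measured. The promoters were searched on both strands for the letters CANNTG (the E-box), GGGCGG (a GC box), TATAAA (known as the TATA box) and TAATTG (a homeodomain core), of which matches may overlap in part. The E-box was found in 6 of 9 and the GC box in 6 of 9, whereas 72.3% and 35.7% of all promoters hold them. The TATA box and the homeodomain core were in 0 of 9, against 13.6% and 8.00% of all. A match is a description of these letters in this window and no site.

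Gsto2 was high in 21 of 24 gonad-derived GROs at 21.3 to 75.3 CPM (group median 54.9 CPM). Oocytes 10, 19 and 20 had 0.566, 0.274 and 0.174 CPM. With oocyte 10, 19 or 20 left out, the on-off calls of Gsto2 and Cfap58 in GROs ended. In gonad-derived FGOs oocytes 17 to 23 were high, with 70.6, 68.8, 24.3, 42.8, 87.5, 63.3 and 52.8 CPM in that sequence, and the other 17 had at most 0.669 CPM. Outside the gonad-derived groups Gsto2 was nearly absent. No oocyte of the other 5 groups exceeded 0.927 CPM, and the gene failed the filter on low values (above 1 CPM in at least 3 oocytes of the group) in each of them.

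Cfap58 was high in the same 21 gonad-derived GROs at 92.1 to 147 CPM (group median 110 CPM) and low in the same oocytes 10, 19 and 20, at 4.53, 4.66 and 3.31 CPM. In gonad-derived FGOs oocytes 17, 18, 20, 21, 22 and 23 had 93.9, 77.4, 89.0, 75.8, 82.9 and 86.8 CPM. Oocyte 19, high for Gsto2, had 15.0 CPM of Cfap58, within the low range of 6.09 to 17.0 CPM. The state of the pair thus matched in 24 of 24 GROs and 23 of 24 FGOs. Pearson's r of the log2 levels was 0.94 over the 24 GROs and 0.93 over the 24 FGOs.

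The levels of the pair followed each other less closely by rank than by state. Spearman's rho, which ranks the oocytes, was -0.0078 in GROs and 0.61 in FGOs. Itprip, the gene between them, ranged from 39.9 to 154 CPM in gonad-derived GROs without a call, with an r of 0.16 to Gsto2 and 0.17 to Cfap58. In the remaining groups Cfap58 was low and graded, with medians of 2.94 CPM in in vivo GROs, 4.65 CPM in iPSC-derived GROs, 7.62 CPM in in vivo FGOs, 10.4 CPM in iPSC-derived FGOs and 11.4 CPM in 6 dpp FGOs, and the ranges of neighbours in that order overlap. The single value above its threshold was 24.3 CPM in 6 dpp FGO 3, an oocyte that also held the highest Gpat3 of its group.

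**Figure D2:**
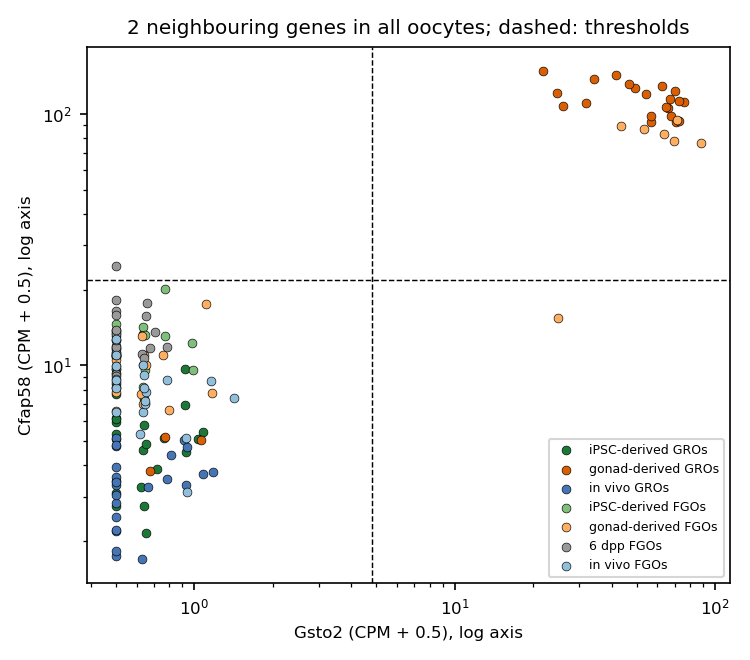
Gsto2 against Cfap58 in all 163 oocytes, as CPM + 0.5 on log axes, coloured by group, with both thresholds dashed. The upper right corner holds gonad-derived oocytes only, 21 GROs and 6 FGOs, and 1 gonad-derived FGO is high for Gsto2 alone.

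Fmo6, the monooxygenase (Entrez 226565, chr1:162916551-162937566), was high in 17 gonad-derived GROs at 31.4 to 133 CPM and low in 7 at 0.292 to 6.02 CPM. In gonad-derived FGOs oocytes 17, 18, 22 and 23 had 53.4, 79.5, 72.9 and 105 CPM, and the other 20 had at most 5.07 CPM. Every oocyte of the other groups was low. Medians were 0.432 CPM in iPSC-derived and 0.288 CPM in in vivo GROs against 3.97 CPM in iPSC-derived and 2.76 CPM in in vivo FGOs, with overlapping ranges.

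Pdgfrl, the receptor-like protein (Entrez 68797, chr8:40926233-40990782), was high in 11 gonad-derived GROs at 6.11 to 25.2 CPM, and the 13 low oocytes had at most 0.330 CPM. iPSC-derived GROs had 9.83 to 42.2 CPM (median 25.2 CPM). iPSC-derived FGOs had 0.410 to 20.6 CPM (median 5.62 CPM), with 22 of 24 above the threshold of 1.84 CPM, and both ranges overlap. Among gonad-derived FGOs oocytes 20 and 21 had 7.61 and 2.11 CPM, and the next had 1.29 CPM. No in vivo or 6 dpp oocyte exceeded 0.925 CPM.

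Draxin, the axon guidance protein (Entrez 70433, chr4:148098437-148131139), was high in 8 gonad-derived GROs at 12.2 to 24.7 CPM, and 16 had 0.437 to 2.47 CPM. A single gonad-derived FGO, number 10, was high at 23.9 CPM, and the next had 4.15 CPM. iPSC-derived GROs had 5.99 to 18.6 CPM (median 11.2 CPM) and iPSC-derived FGOs 3.67 to 16.6 CPM (median 11.3 CPM). The lowest iPSC-derived oocytes therefore lay near the threshold of 5.64 CPM, which 1 FGO missed. In vivo FGOs reached 5.52 CPM (median 1.56 CPM), 6 dpp FGOs 2.64 CPM (median 1.57 CPM) and in vivo GROs 3.13 CPM (median 1.16 CPM), and these ranges overlap.

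Per kilobase of counted exon, the pooled levels over all gonad-derived GROs ran from 85.3 CPM for Mtfr2 and 73.5 CPM for Pnpla3, through 32.2 CPM for Gsto2, then Gpat3, 25.5 CPM for Fmo6, 24.5 CPM for Cfap58 and 13.8 CPM for Bfsp1, to 4.10 CPM for Pdgfrl and 1.09 CPM for Draxin. These pooled values mix high and low oocytes. In iPSC-derived FGOs, where Mtfr2 and Pnpla3 were high throughout, their levels per kilobase were 279 and 125 CPM.

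Fewer oocytes were high at full size. Of 216 values (9 genes in 24 oocytes) 133 were high in gonad-derived GROs, 61.6%, and 40 in gonad-derived FGOs, 18.5%. All 40 came from FGOs 10 and 17 to 24. Whether these oocytes shared a culture or collection is not stated, so that cannot be told apart from growth. With the threshold at the lower edge of each gap the FGOs had 79, and with 10 CPM for every gene 71. At the middle of the gap each of the 9 genes had fewer high oocytes among the FGOs. So had 13 of the 14 other genes called in the GROs (57.7% of their values high in GROs and 23.2% in FGOs). This did not hold for each gene at the other thresholds. All 24 FGOs lay above the lower edge for Cfap58 (4.66 CPM, lowest FGO 6.09 CPM), against 21 GROs. At 10 CPM every oocyte of both groups was high for Mtfr2 (lowest 16.8 CPM in GROs and 31.9 CPM in FGOs). The GRO shares come from the oocytes on which the genes were picked. High oocytes were 21 of 24 GROs and 7 of 24 FGOs for Gsto2, 16 and 5 for Pnpla3 and 8 and 5 for Bfsp1, and no test of these differences was made.

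**Figure D3:**
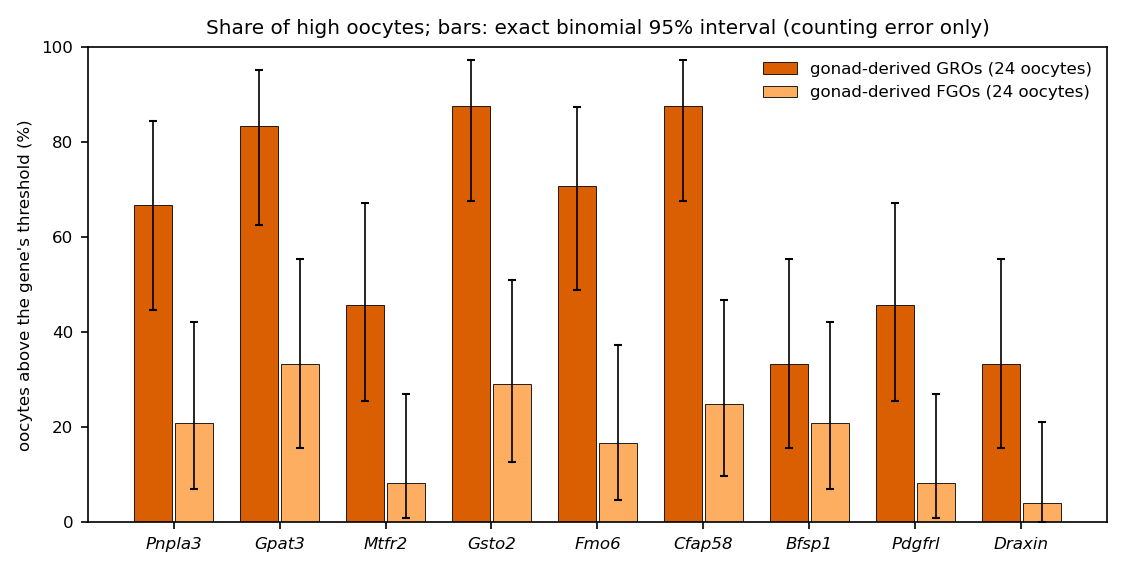
Share of gonad-derived oocytes (%) above each gene's threshold, GROs in dark and FGOs in light orange, 24 oocytes each; error bars are exact binomial 95% intervals, which cover counting error only. At this threshold, the middle of the gap, the share is lower in FGOs for each of the 9 genes, from 87.5% to 29.2% for Gsto2 and from 33.3% to 20.8% for Bfsp1. It is not lower for Cfap58 at the lower edge of the gap, nor for Mtfr2 at 10 CPM. At the middle of the gap all high FGO values come from oocytes 10 and 17 to 24.

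The 24 gonad-derived GROs showed 10 combinations of the 9 states, and 5 of these occurred once. In 5 oocytes (2, 8, 14, 15 and 17) Gpat3, Mtfr2, Gsto2, Fmo6, Cfap58, Pdgfrl and Draxin were high and Pnpla3 and Bfsp1 low. In 5 others (1, 7, 13, 18 and 22) Pnpla3, Gpat3, Gsto2, Fmo6, Cfap58 and Bfsp1 were high and Mtfr2, Pdgfrl and Draxin low. Oocyte 20 was high for none, and no oocyte was high for all 9, the most being 7.

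At the middle of the gap 15 of 24 gonad-derived FGOs were high for none of the 9 genes. The other 9 were oocytes 10 and 17 to 24, and the labels do not tie these numbers to an animal, culture, day or strip of tubes. They showed 7 combinations. FGOs 17, 18 and 22 had the combination of Pnpla3, Gpat3, Gsto2, Fmo6, Cfap58 and Bfsp1 that 5 GROs had, and FGO 23 had that of GRO 21 (Gpat3, Gsto2, Fmo6 and Cfap58). With the 2 shallowest FGOs, 5 and 22, left out, 34 values were high and 6 genes were still called. The count of 15 depends on the threshold. Every gonad-derived FGO lay above the lower edge of the gap for Cfap58 (at least 6.09 CPM) and above 10 CPM for Mtfr2 (at least 31.9 CPM).

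**Figure D4:**
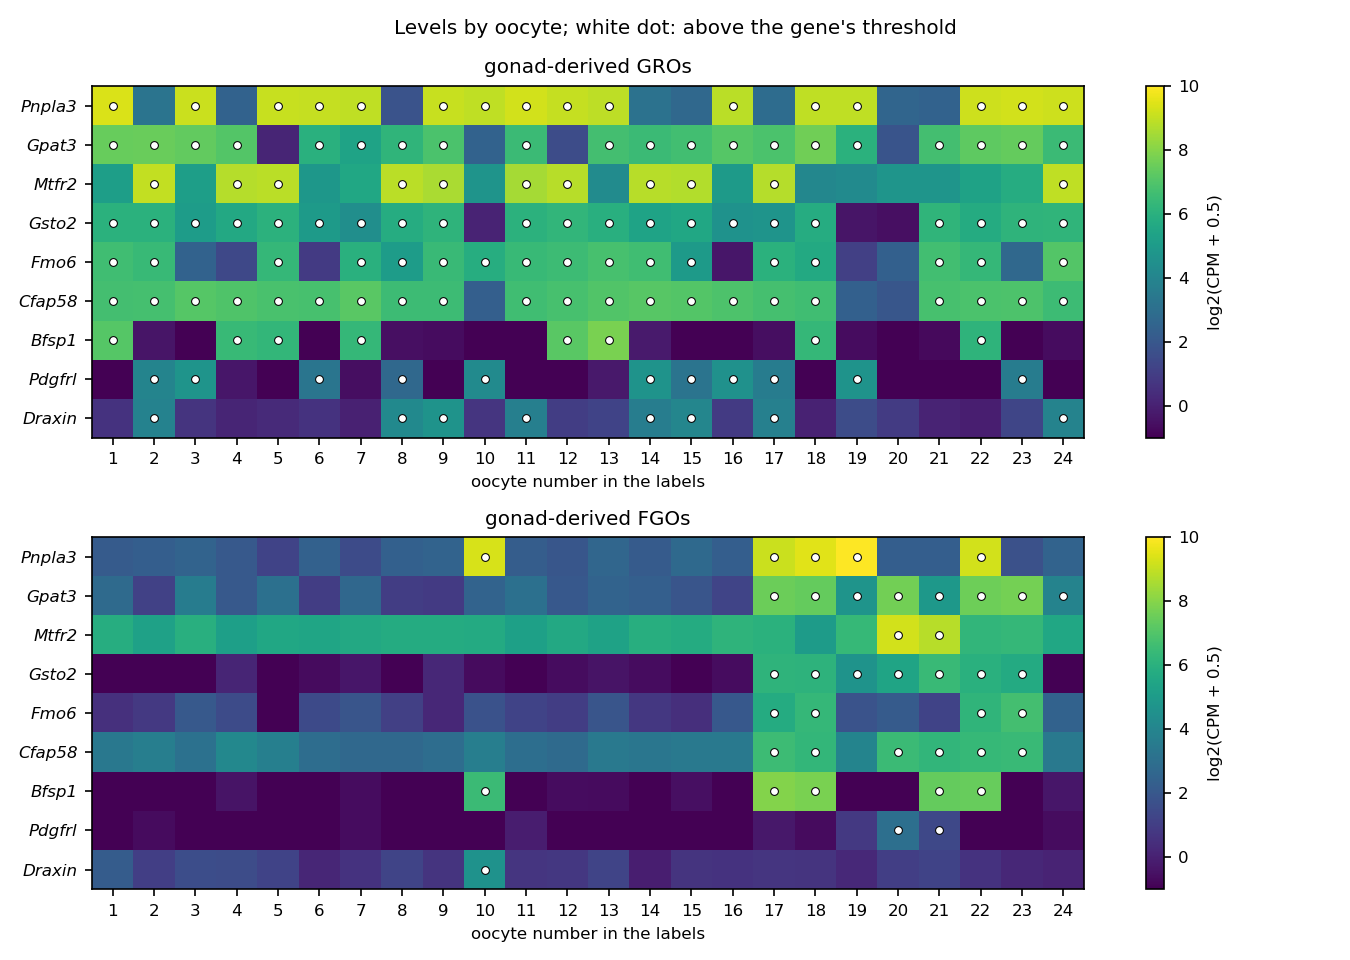
Log2(CPM + 0.5) of the 9 genes (rows) in each gonad-derived GRO (top) and FGO (bottom), by oocyte number; a white dot marks a value above the gene's threshold. GROs show recurring combinations of high genes, and 15 of 24 FGOs carry no dot.

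Pairs of the 9 genes on different chromosomes, 35 in all, showed mixed relations over gonad-derived GROs, with Pearson's r of the log2 levels from -0.60 to 0.70 and a median of 0.11. Bfsp1 and Pdgfrl were never high together: 8 GROs were high for Bfsp1 alone, 11 for Pdgfrl alone and 5 for neither (r -0.60). Bfsp1 and Draxin also shared no high GRO (r -0.53). All 8 GROs high for Draxin were high for Mtfr2, and 3 more were high for Mtfr2 alone (r 0.70). By rank these 3 relations were weaker. Spearman's rho was -0.35 for Bfsp1 and Pdgfrl, -0.26 for Bfsp1 and Draxin and 0.45 for Mtfr2 and Draxin. These relations did not all recur in FGOs. Draxin and Bfsp1 were high together in FGO 10, where Mtfr2 was low, and Bfsp1 and Pdgfrl were high together in FGO 21. The latter rests on the threshold: FGO 21 had 2.11 CPM of Pdgfrl, just above 1.84 CPM and inside the gap of that gene in GROs (0.330 to 6.11 CPM). Over FGOs the median r was 0.48, with 15 oocytes low for everything at the middle of the gap.

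Beyond the 9 genes, the 2 most alike in level over gonad-derived GROs were taken for each from 12379 genes. Of these 18 entries, in which Slf2 stands once for Gsto2 and once for Cfap58, 12 lay on the chromosome of the gene they resembled, where 3.31% to 7.71% of the ranked genes lie. They were 1.13 to 19.6 megabases away. For Pnpla3 they were Nfam1 (r 0.91) and Celsr1 (0.86), for Gpat3 Sppl3 (0.89) and 1500011B03Rik (0.80), and for Fmo6 Alyref2 (0.96) and Gm16548 (0.94). For Bfsp1 they were Macrod2 (0.93) and Zc3h6 (0.76), for Pdgfrl Defa29 (0.98) and Nek3 (0.93), and Slf2 was first for both Gsto2 (0.82) and Cfap58 (0.78). Alyref2, which encodes an RNA export factor, and Defa29, a defensin, were themselves called on-off.

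Each r was the first or second highest among all ranked genes and so describes the ranking. The FGOs were not used in it, and there the 12 entries of the same chromosome had r from 0.16 (Nek3) to 0.93 (Nfam1), median 0.73. The 6 genes of another chromosome, Zfp981 and Fgf7 for Mtfr2, Loxl1 for Gsto2, Gm3772 for Cfap58 and Tulp3 and Eno1b for Draxin, had r from -0.54 (Fgf7) to 0.64 (Gm3772), median -0.11. The points of each r share a library, and some of these genes are counted in few reads, such as Macrod2 at 0.624 CPM pooled. The entries of Mtfr2 and Draxin are all of another chromosome, and only 2 and 1 FGOs were high for Mtfr2 and Draxin. The medians of same and other chromosomes therefore rest on different sets of the 9 genes, and their difference was not tested.

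**Figure D5:**
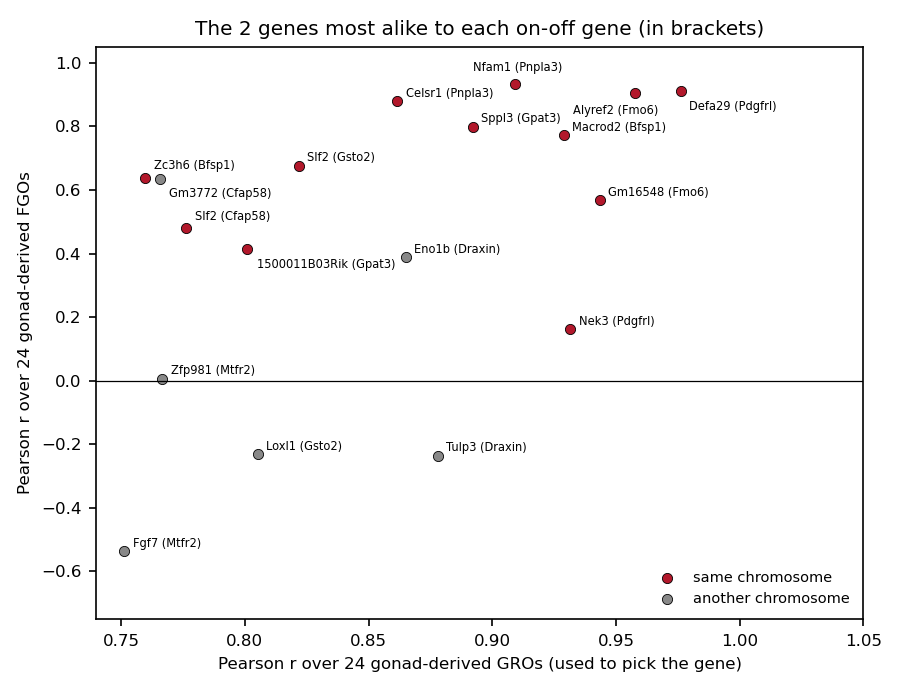
Pearson's r of log2(CPM + 0.5) between each on-off gene and its 2 most alike genes, over 24 gonad-derived GROs (x axis, used for the ranking) and over 24 gonad-derived FGOs (y axis, not used). Genes of the same chromosome (red) lie between 0.16 and 0.93 on the y axis and those of another chromosome (grey) between -0.54 and 0.64. Among the grey genes are those of Mtfr2 and Draxin, for which only 2 and 1 FGOs were high.

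The nearest expressed genes were examined next, with distances between annotated spans. The 3 expressed genes on each side gave 52 entries that are not among the 9. None was called on-off in gonad-derived GROs, where 0.185% of all genes were. At such a share the lack of a call says nothing particular about these entries. For 9 of them r was above 0.5 and for 40 it lay within -0.5 to 0.5. Samm50, which encodes a protein of the mitochondrial outer membrane and starts 2.72 kb after Pnpla3, ranged from 49.5 to 153 CPM with an r of 0.84 in GROs and 0.83 in FGOs. Sult4a1, 62.0 kb before Pnpla3, had 0.80 and 0.61. Clcn6, a chloride transporter gene 59.6 kb before Draxin, had 0.86 and 0.80, and Kif16b, a kinesin gene 925 kb before Bfsp1, had 0.69 and 0.56. Some neighbours ran the other way: Pnpla5, 44.6 kb from Pnpla3, had -0.52 in both groups, and Mtmr7, 291 kb from Pdgfrl, had -0.74 and -0.47.

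The same search covered close relatives. Of 25 named relatives 24 were in the table and 18 passed the filter in gonad-derived GROs. None was called on-off in either gonad-derived group, where 0.185% (GROs) and 0.154% (FGOs) of all genes were. At such shares the lack of a call says nothing particular about the relatives. Gsto1, the other omega-class transferase, ends 0.648 kb before Gsto2 and ranged from 0.960 to 11.1 CPM. Mtfr1 ranged from 117 to 185 CPM and Bfsp2, the filament partner of Bfsp1, from 1.02 to 8.60 CPM. Pdgfra was at 0 CPM and Pdgfrb at most at 0.682 CPM. Among acyltransferases Gpat4 ranged from 33.2 to 61.1 CPM. Reads that match several genes were not counted, so levels of close copies are uncertain. The annotated spans of Gpat3 and Draxin overlap those of Abraxas1 and Mad2l2 on the opposite strand by 200 and 982 bases, and strand use in the counting is not stated. Abraxas1 ranged from 97.5 to 143 CPM and Mad2l2 from 59.9 to 99.5 CPM, without a call.

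Other genes of the same pathways were listed as well. Of 100 listed genes 95 were in the table and 74 passed the filter in gonad-derived GROs. None was called on-off there, beside 0.185% of all genes tested, nor in gonad-derived FGOs, beside 0.154%. At such shares a count of 0 says nothing particular about these pathways. The lists cover lipid droplets and glycerolipids (17 of 21 passed), glutathione and ascorbate (18 of 23), mitochondrial fission and fusion (10 of 10), netrin and draxin signalling (6 of 10), PDGF (3 of 6), beaded and intermediate filaments (8 of 9) and cilia and flagella (12 of 16).

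Listed genes past 4-fold in pooled CPM are given beside the share of all genes. With growth in vivo 2 of 79 were higher, beside 3.07% of all genes: Mgst1, a microsomal glutathione transferase (6.35 against 0.964 CPM), and Ntn1, which encodes netrin (3.84 against 0.321 CPM). The intermediate filament gene Nes (0.897 against 12.0 CPM) and Pdgfa, a PDGF ligand (7.64 against 32.6 CPM), were lower, beside 1.95%. With growth of gonad-derived oocytes 5 of 77 were lower, beside 1.87%: Krt8, a keratin, Nes, Pdgfa, the PDGF ligand Pdgfd, and Gpam, a mitochondrial acyltransferase of the Gpat3 family (0.727 against 4.76 CPM). With growth of iPSC-derived oocytes 1 of 74 was higher, beside 1.13%, namely Mgst1 (3.35 against 0.438 CPM), and Gpam and Pdgfd were lower, beside 3.61%. Between groups of 1 stage, Mgst1 was lower in gonad-derived than in 6 dpp FGOs (1.92 against 12.7 CPM), 1 of 77 beside 0.185%, and Krt8 was higher in iPSC-derived than in in vivo GROs (37.5 against 5.75 CPM), 1 of 79 beside 1.07%.

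Group levels were compared by pooled CPM over all oocytes of a group. Ratios are log2 of pooled CPM + 0.5, which understates the change of low genes, and 4-fold is the size rule. The comparison named for in vitro differentiation (IVD@GRO, gonad-derived against in vivo GROs) passed 4-fold upwards for 8 of 9 genes, beside 0.651% of all genes, in the oocytes on which they were picked, and downwards for none (0.0536%). The comparison of the preceding step, the induction of germ cell-like cells (IVP@GRO), set iPSC-derived against gonad-derived GROs. It passed downwards for Gsto2 (-6.16), Fmo6 (-5.56) and Cfap58 (-4.22), beside 0.23% of all genes, and upwards for none, beside 0.345%. Besides this step, these groups differ in germ cell source, an iPSC line against embryonic gonads, and the design cannot tell step and source apart. The same holds wherever iPSC-derived oocytes are compared with oocytes of another source. By medians over oocytes IVD@GRO passed upwards for 5 genes, without Mtfr2, Bfsp1 and Pdgfrl, and IVP@GRO for 4 (Mtfr2 3.21, Bfsp1 7.33, Pdgfrl 4.97 and Draxin 2.58).

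The rule uses no value of the comparisons without the gonad-derived GROs, though their earlier results were known when the genes were chosen. iPSC-derived against in vivo GROs passed upwards for 6 of the 9 genes, 8 of which passed the filter, beside 1.07% of all, with 7.78 for Bfsp1 (134 CPM, 95% interval 132 to 136, against 0.111 CPM, 0.0659 to 0.176; exact Poisson, counting error only), 6.83 for Pnpla3, 5.25 for Pdgfrl, 4.50 for Gpat3, 3.69 for Mtfr2 and 2.79 for Draxin. None passed downwards, beside 0.19%. IVP@FGO, iPSC-derived against gonad-derived FGOs, passed upwards for Mtfr2 (2.93), Bfsp1 (2.73), Pdgfrl (2.59) and Pnpla3 (2.12), beside 0.442% of all genes. It passed downwards for Gsto2 (-4.75), beside 0.272%, a call that ended by medians over oocytes (-0.19), and Draxin was just short of the limit at 1.98 (2.60 without gonad-derived FGO 10, the single oocyte high for it). By medians over oocytes 6 genes passed upwards in IVP@FGO, with Gpat3 (2.96) and Draxin (2.87) in addition.

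IVD@FGO, gonad-derived against 6 dpp FGOs, passed upwards for Bfsp1 (5.89), Pnpla3 (4.94), Gsto2 (4.89), Gpat3 (3.15) and Fmo6 (2.66), beside 0.247% of all genes, and downwards for none, beside 0.185%. These comparisons share the gonad-derived FGOs. The pooled values mix both states, and by medians over oocytes none of the 9 passed in IVD@FGO. The comparison for in vitro growth (IVG@FGO), 6 dpp against in vivo FGOs, had none in either direction among the 6 of the 9 genes that passed the filter (0.0851% upwards and 0.278% downwards of all genes). Growth in vivo likewise had none of the 6 that passed (3.07% and 1.95%), and by medians over oocytes Fmo6 stood at 2.05.

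With growth of gonad-derived oocytes the pooled level was lower for each of the 9 genes, with ratios from -2.92 (Pdgfrl) to -0.11 (Bfsp1) and 2 genes, Fmo6 and Pdgfrl, past 4-fold, beside 1.87% of all genes. By medians over oocytes 5 genes passed (Pnpla3, Gpat3, Gsto2, Fmo6 and Cfap58), and after thinning 1. None was higher by 4-fold, beside 0.88%. At the middle of the gap the high FGOs in these pooled levels were oocytes 10 and 17 to 24 alone. The sign for Bfsp1 depended on the processing, with 0.06 after thinning every oocyte to 2000000 reads and up to 0.21 with 1 oocyte left out, and by medians over oocytes Mtfr2 stood at 0.08. With growth of iPSC-derived oocytes Pdgfrl alone passed, at -2.09, beside 3.61% of all genes, and none passed upwards, beside 1.13%, while by medians over oocytes Fmo6 stood at 2.26.

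Library measures were set against the 9 genes. Over gonad-derived GROs Pearson's r of their log2 levels with the log10 total count ran from -0.22 to 0.12, with the number of genes above 1 CPM from -0.37 to 0.30 and with the share of the 50 most counted genes from -0.28 to 0.30. With the summed granulosa markers it ran from -0.12 to 0.50, the latter for Gsto2, and its part in the result was not tested. Over gonad-derived FGOs the same 4 measures gave -0.29 to 0.11, -0.20 to 0.32, -0.16 to 0.46 and -0.24 to 0.22.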

How the data were processed

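Libraries were made from single mouse oocytes with Smart-seq2. The authors aligned reads with STAR to GRCm38 (mm10) and deposited raw counts per gene of uniquely mapped reads over the exons of 1 transcript per gene, counted with QuasR. Strand use in the counting is not given in the sources used here. Of 21950 genes 21907 matched a symbol. Counts were divided by the oocyte's total to give CPM. Depth was 2.17 M to 13.7 M reads per oocyte. PCR copies carry no molecular identifiers, so intervals cover counting error only.

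Genes above 1 CPM in at least 3 oocytes of a group were searched for the widest gap on log2(CPM + 0.5), with at least 3 oocytes on each side, at least 4-fold and an upper set from 2 CPM. Groups count as 1 sample each, so pooled CPM with exact Poisson and shares with exact binomial 95% intervals replaced tests, and 4-fold was the size rule. The text names the 9 genes, their 2 most alike genes, neighbours, relatives and listed pathway genes, and the 5 widest other called genes. The members and lists were chosen with earlier results of these data known. The search was run on simulated counts modelled on in vivo GROs, as a check of the code. How well it finds gaps near 4-fold is not given here. TMM factors came from edgeR 4.0.16 in R 4.3.3, and the rest used Python 3.11.15. Alternatives were scaling, pseudocount, filter, gap, threshold, thinning to 2000000 reads, medians over oocytes and leaving out each oocyte. Leaving out gonad-derived FGOs 5 and 22, or 6 dpp FGO 12 with in vivo FGOs 16 and 19, was chosen after seeing the data.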

Additional observations from a re-analysis of the deposited data

How the results depend on the processing

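No paired analysis was possible because oocyte numbers name single oocytes and no test was made. Of 81 ratios (9 genes in 9 comparisons) 12 changed sign under at least 1 alternative, and none of the 30 past 4-fold did. A gap of 1.5 in place of 2 (log2) called 37 genes in gonad-derived FGOs in place of 19. A gap of 3 called 10 genes in gonad-derived GROs in place of 23, among them 4 of the 9, and 12 in gonad-derived FGOs, among them 4 of the 9 in place of 6. With at least 5 oocytes on each side 6 of the 9 were called in gonad-derived GROs, without Gpat3, Gsto2 and Cfap58, and 5 in gonad-derived FGOs, without Fmo6. In the FGOs at least 2 oocytes on each side added Mtfr2 (7 called), and thinning to 2000000 reads added Pdgfrl (7 called, gap 2.32 in place of 0.96). With a pseudocount of 1 CPM 8 were called in gonad-derived GROs, without Draxin (gap 1.93). Leaving out each oocyte in turn left 7 to 9 of the 9 called in gonad-derived GROs, since Gsto2 and Cfap58 kept only 2 low oocytes without oocyte 10, 19 or 20, and 6 called in gonad-derived FGOs. With the threshold at the upper edge of each gap, 104 values were high in iPSC-derived GROs (138 at its middle), 102 in iPSC-derived FGOs (140) and 0 in 6 dpp FGOs (2). At the lower edge 12 were high in in vivo GROs (0), 175 in iPSC-derived FGOs, 79 in gonad-derived FGOs (40), 52 in 6 dpp FGOs and 30 in in vivo FGOs (0). At 10 CPM for every gene 24 were high in in vivo GROs, 71 in gonad-derived FGOs, 46 in 6 dpp FGOs and 22 in in vivo FGOs. Leaving out single 6 dpp oocytes gave 0 to 2. Spearman's rho of Gsto2 and Cfap58 was -0.0078 in GROs and 0.61 in FGOs. Of the 9 genes past 4-fold, a pseudocount of 0.1 gave 1 higher with growth in vivo and 1 with growth of iPSC-derived oocytes. Thinning gave 1 lower with growth of gonad-derived oocytes (2 without) and 1 higher with growth of iPSC-derived oocytes. Medians over oocytes gave 1 higher with growth in vivo, 5 lower with growth of gonad-derived and 1 higher with growth of iPSC-derived oocytes, 4 higher in IVP@GRO, 5 higher in IVD@GRO, 0 lower in IVP@FGO and 0 higher in IVD@FGO. Leaving out single oocytes gave 0 to 1 higher in IVP@GRO: Bfsp1 passed, at 2.03 to 2.15, without gonad-derived GRO 1, 12 or 13. Cfap58 passed with growth of gonad-derived oocytes, at up to -2.03, without FGO 17, 18, 20, 21 or 23. Draxin passed in IVD@GRO, at 2.00 to 2.03, without gonad-derived GRO 1, 4, 5, 6, 7, 10, 16, 18 or 21 or in vivo GRO 6, and in IVP@FGO without iPSC-derived FGO 14 (2.01) or gonad-derived FGO 1 (2.02) or 10 (2.60). The causes were not tested. Depth limits Gsto2, Bfsp1 and Pdgfrl in low oocytes, where values rest on few reads.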

Other observations

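Of the 14 other genes called on-off in gonad-derived GROs, the 5 with the widest gaps were Pxdn (4.82 on the log2 scale), Arhgef15 (4.77), Prr15l (3.98), A930015D03Rik (3.63) and Nlrp5-ps (3.17). In in vivo GROs every oocyte was low for each of the 14. Pxdn, a peroxidase of the extracellular matrix, was high in 17 of 24 gonad-derived GROs and in all iPSC-derived GROs, at 23.4 to 48.4 CPM in the latter, and 5 gonad-derived FGOs had 20.2 to 29.9 CPM. Arhgef15 was at 0 in 8 gonad-derived GROs and at 13.1 to 32.3 CPM in 16, and iPSC-derived GROs were all at 0. The long non-coding RNA A930015D03Rik was high in 14 gonad-derived GROs, in 7 gonad-derived FGOs at 33.1 to 44.6 CPM and in every iPSC-derived GRO at 27.1 to 57.6 CPM. Nlrp5-ps, a transcribed pseudogene, was high in 10 gonad-derived GROs, up to 69.6 CPM, and low in all iPSC-derived GROs. Reads of a pseudogene can be hard to tell from those of its parent gene. Of the 14, 7 were high in all iPSC-derived GROs, 5 low in all and 2 mixed.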
